A study of Rattus norvegicus with 9 samples.

Results

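Oxidative phosphorylation is the mitochondrial process that makes most ATP in aerobic cells, and the genes described here encode its nuclear-encoded subunits in rat chondrocytes exposed to interleukin-1β (IL-1β) with or without dermal fibroblasts. They were taken by symbol alone, as every gene whose symbol begins with Nduf, 1 of the letters a, b, c, s or v and a digit, or with Uqcr, Atp5 or Cox followed by a digit of 4 to 8, and the genes Sdha, Sdhb, Sdhc and Sdhd. This gave 82 of the 17588 genes in the authors' table. Of these, 77 were counted as established subunits: 33 of complex I, 4 of complex II, 8 of complex III, 17 of complex IV and 15 of complex V. Ndufa4 and its paralogue Ndufa4l2 carry complex I names but are counted with complex IV, where the Ndufa4 protein is now placed. The complex IV count thus includes Ndufa4l2, listed only as a paralogue, and also Cox7a2l, listed as a supercomplex factor. The other 5 entries are Ndufa10l1 and Cox7a2l2, which are copies of subunit genes, Atp5s and Atp5sl, which RefSeq names Dmac2l and Dmac2, and Ndufs6, whose identifier RefSeq gives to a pseudogene. Cox6b1, Ndufa13 and the subunits encoded by mitochondrial DNA were not analysed here.

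Complexes I and II take electrons from NADH and from succinate, complex III passes them from ubiquinol to cytochrome c, and complex IV, cytochrome c oxidase, hands them to oxygen. Complexes I, III and IV pump protons across the inner membrane, and complex V, the ATP synthase, uses their return to make ATP. Cartilage has no blood vessels and its cells depend largely on glycolysis, while their mitochondria remain functional.

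The 9 libraries are of messenger RNA from primary chondrocytes released from wild-type rat cartilage by collagenase, in 3 groups of 3. Co-culture chondrocytes were stimulated with IL-1β and kept in the lower chamber of a transwell whose upper chamber held dermal fibroblasts, IL-1β chondrocytes received the cytokine with no fibroblasts, and control chondrocytes had neither. The sources used here do not give the dose of IL-1β, the times, or the rats' strain and age. Values are FPKM, which are sequenced fragments scaled to transcript length and library size, so levels of different genes can be set side by side. Nothing in the labels says that replicates were separate animals or cultures, so p-values reflect only how much these libraries vary, which may be technical.

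The FPKM of all genes summed to 809839 to 811665 in co-culture libraries, 796262 to 832248 in IL-1β libraries and 771058 to 782435 in control libraries, and the values were compared as deposited. The first IL-1β library stood apart for these genes. Of the 73 members at 10 FPKM or more, it was the highest of its group in 57 and the second IL-1β library was the lowest in 42. The median coefficient of variation of these members was 2.82% in co-culture, 4.86% in IL-1β and 3.47% in control libraries, against 3.92%, 3.34% and 3.24% over all genes at that level. All 8 chondrocyte markers were detected, and their summed FPKM was 443 to 491 in co-culture, 305 to 321 in IL-1β and 1553 to 1632 in control libraries. The 9 skeletal muscle markers summed to 389.8 to 434.5 FPKM in co-culture, 401 to 423 in IL-1β and 179 to 185.5 in control libraries, and all 9 were higher with IL-1β than in control. The 7 dermal fibroblast markers summed to 570.3 to 660.2 FPKM in co-culture, 1124 to 1189 in IL-1β and 169 to 181 in control libraries, while Dpp4, Pi16, Cd34 and Clec3b among them averaged no more than 1.1 FPKM in any group. The part of these marker differences in the results below was not tested.

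Subunit genes were expressed at high and graded levels. Together the 82 genes took 2.54% of the FPKM sum in co-culture libraries, 2.51% ± 0.07 in IL-1β libraries and 2.42% ± 0.01 in control libraries (SD, n = 3). Over the 9 libraries, the median gene of complex V stood at 467 FPKM and that of complex IV at 290.2, against 151 for complex III, 138 for complex I and 112 for complex II. The highest were Atp5i, a membrane-embedded subunit e of the ATP synthase, with a mean of 948 FPKM, and Atp5b, its catalytic β subunit, with 935. Within complex I, Ndufa11 (333 FPKM) was the highest and Ndufs4 (46.2) the lowest. The highest of complex IV was Cox6c (679), next to Cox6a1 (663) and Cox4i1 (652), whose ranges over the libraries overlapped. Complex III ran up to Uqcrq (399), and complex II was the most even, at 75.3 FPKM for Sdha, 101 for Sdhb, 123 for Sdhd and 134.5 for Sdhc.

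**Figure D1:**
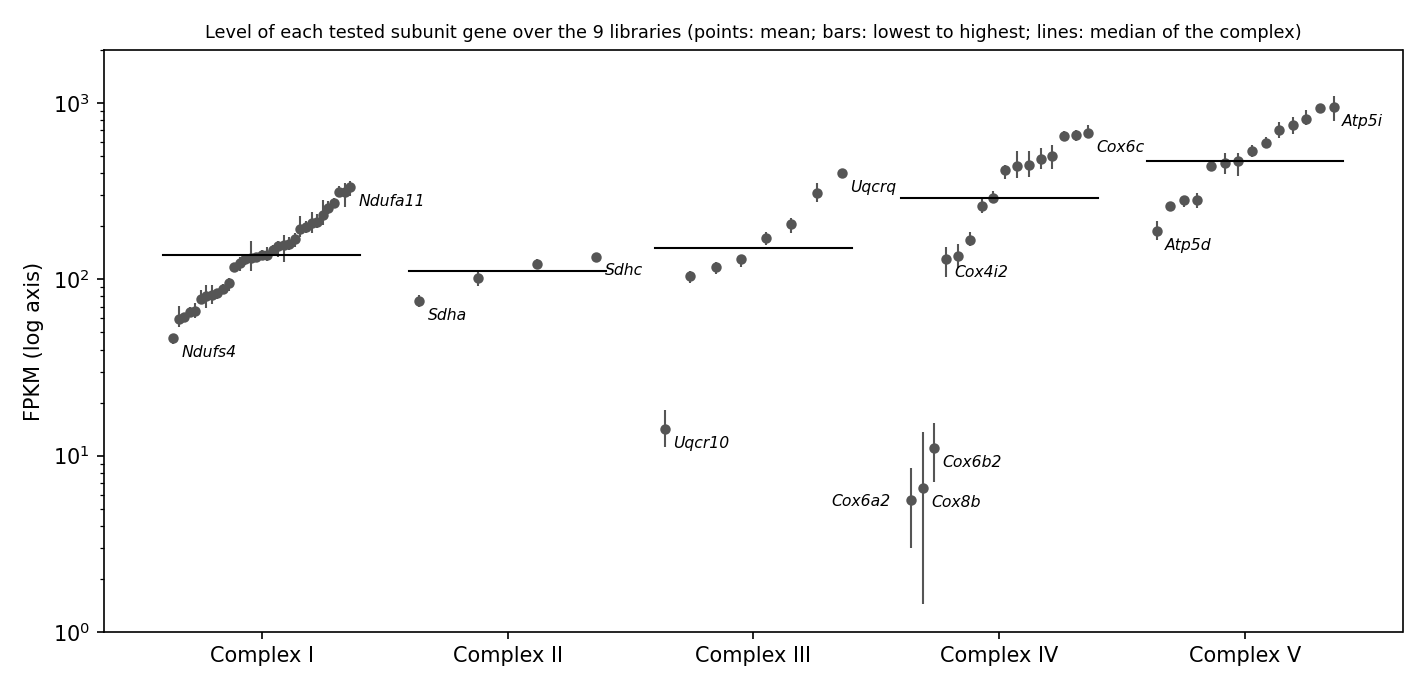
FPKM of the 75 tested subunit genes on a log axis, grouped by complex; points are means over the 9 libraries, bars run from the lowest to the highest library, and lines mark the median over all listed genes of each complex. Complex V genes reach 948 FPKM (Atp5i), and Uqcr10, Cox6b2, Cox8b and Cox6a2 lie far below the rest of their complexes.

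A few subunits stood far below their complexes. Uqcr10, a small accessory subunit of complex III, had a mean of 14.1 FPKM, while the other 7 genes of that complex lay at 104 to 399. Atp5f1, the peripheral stalk subunit b, was listed at 13.0 FPKM in the third control library and at 0 in the other 8 libraries, while the other complex V genes stood at 167 FPKM or more in every library. Because this subunit is part of every ATP synthase, only these listed values are given and no comparison was made. Cox7a1, the heart and muscle isoform of subunit VIIa, did not exceed 0.12 FPKM in any library. Atp5f1 and Cox7a1 did not reach 1 FPKM in 3 libraries, so 80 members were tested, 75 of them established subunits.

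Relative to the whole library, complexes differed little and not all in the same way. Complex I took 0.642%, 0.635% and 0.642% of the FPKM sum in co-culture libraries, 0.645%, 0.618% and 0.626% in IL-1β libraries, and 0.618%, 0.627% and 0.608% in control libraries. Complex III took 0.184%, 0.183% and 0.186% of the FPKM sum in co-culture libraries, 0.185%, 0.182% and 0.183% in IL-1β libraries, and 0.176%, 0.179% and 0.174% in control libraries. The co-culture libraries lay above the control libraries in the shares of complexes I and III, and the IL-1β libraries also lay above them for complex III.

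Complex IV took 0.673%, 0.667% and 0.668% of the FPKM sum in co-culture libraries, 0.704%, 0.657% and 0.672% in IL-1β libraries, and 0.63%, 0.643% and 0.64% in control libraries. Complex V took 0.979%, 0.991% and 0.983% of the FPKM sum in co-culture libraries, 0.995%, 0.929% and 0.957% in IL-1β libraries, and 0.929%, 0.917% and 0.938% in control libraries. The co-culture libraries lay above the control libraries for complexes IV and V as well. The IL-1β libraries lay above the control libraries for complex IV, but for complex V the second IL-1β library was no higher than the first control library. The first IL-1β library was the highest of all for complexes I, IV and V.

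Complex II took a smaller share in each IL-1β library than in any other library. It stood at 0.0557%, 0.0549% and 0.055% in co-culture, 0.0524%, 0.0527% and 0.0523% in IL-1β, and 0.0556%, 0.0558% and 0.0543% in control libraries. As summed FPKM before division by the library sum, the IL-1β libraries (436, 420 and 423) overlapped the control libraries (430, 437 and 418). The co-culture libraries, at 452, 445 and 446 FPKM, lay above both. These sums are given without a test.

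**Figure D2:**
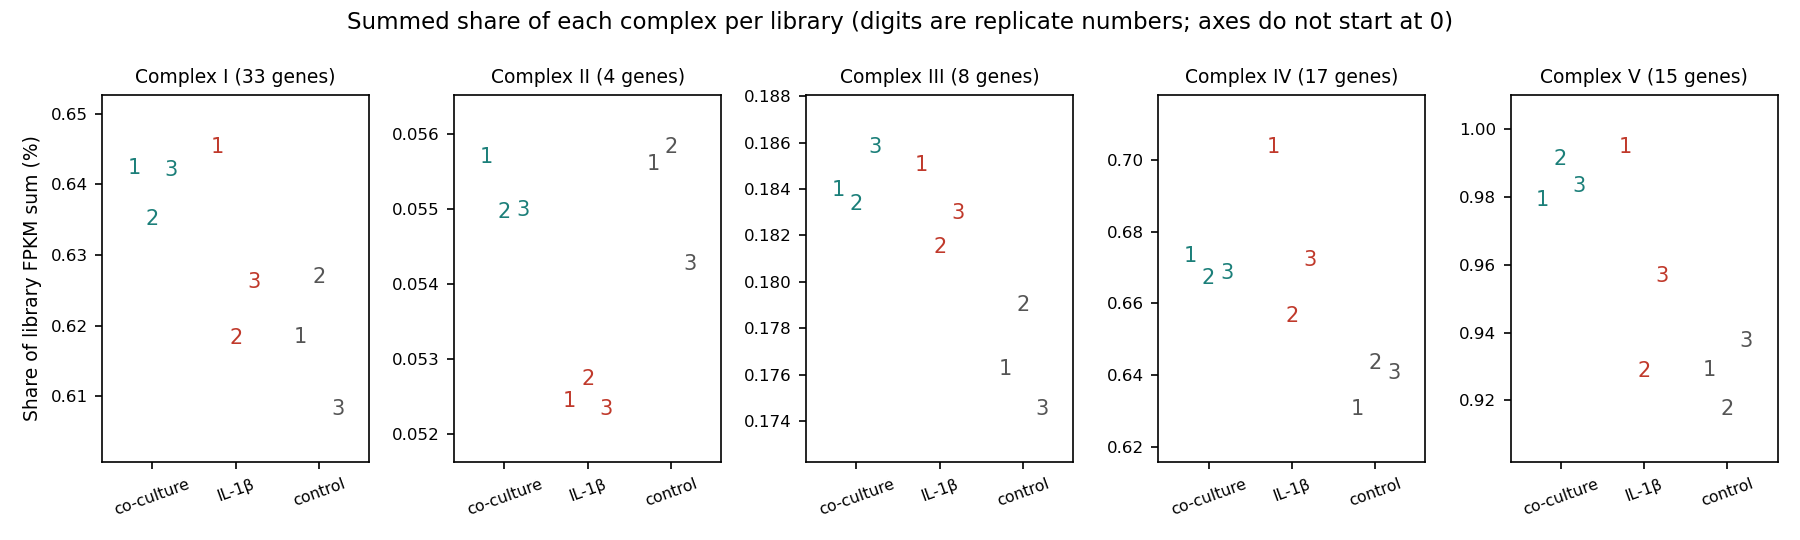
Share of each library's FPKM sum (%) taken by the genes of each complex; digits are replicate numbers, groups run from co-culture to IL-1β to control, and the axes do not start at 0. The 3 IL-1β libraries lie below the rest for complex II (0.0523% to 0.0527%), and the first IL-1β library is the highest for complexes I, IV and V.

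Gene by gene and on the values as deposited, IL-1β was accompanied by slightly higher levels of many subunits, most densely in complex IV. Genes were tested with limma on log2(FPKM + 1) and called at an adjusted p under 0.05 (Benjamini-Hochberg over 11732 genes). Against control, 27 of the 80 members (33.8%) were higher with IL-1β and 1 (1.25%) was lower, while 26.5% of all tested genes were higher and 20.2% were lower. The median log2 change was 0.10 over the members and 0.02 over all tested genes. Under median-of-ratios scaling 19 members were higher and 1 lower, and under quantile normalization 20 were higher and 6 lower. With libraries scaled to a common FPKM sum, 15 members were higher and 7 lower. The 7 were Ndufa12, Ndufb9, Ndufv2, Sdhb, Sdhc, Cox6a1 and Atp5b. The split over all genes also moved, with 2249 higher and 3188 lower under a common sum, 2723 and 2732 under median-of-ratios scaling and 2291 and 3332 under quantile normalization, beside 3109 and 2370 as deposited. Without the first IL-1β library, 18 of the 80 members were higher and 1 was lower, beside 2789 higher and 2108 lower of all 11732 tested genes. In bulk RNA, a changed share of cells and a changed amount of RNA per cell cannot be told apart.

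On the values as deposited, fibroblasts were accompanied by few further differences, but this count depended on the first IL-1β library. In co-culture against IL-1β, 5 members (6.25%) were higher and 2 (2.5%) were lower, below the 11.9% and 10.1% of all tested genes, and the median log2 change was 0.02 for both. Without the first IL-1β library 14 of the 80 members were higher and 2 lower, beside 1108 higher and 964 lower of all 11732 tested genes. Without the second or the third 2 were higher, beside 1060 and 1036 of all tested genes. The 14 comprised 8 genes of complex I, 2 of complex II, 1 of complex IV and 3 of complex V.

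Co-culture chondrocytes differed from control in many subunits. Against control, 32 members (40.0%) were higher and 1 (1.25%) was lower, beside 21.8% and 12.2% of all tested genes. The median log2 change was 0.11 over the members and 0.04 over all tested genes. The number of higher members was 15 with a common FPKM sum, 16 with median-of-ratios scaling and 14 with quantile normalization, while all genes split into 1541 higher and 2009 lower, 1854 and 1869, and 1641 and 2076 under these scalings, beside 2554 and 1427 as deposited. These comparisons share libraries: both comparisons with control use the same control libraries, and co-culture against IL-1β uses the IL-1β libraries again. Calls that held under all 3 other scalings were 14 of the 27 higher with IL-1β, 4 of the 7 in co-culture against IL-1β, and 11 of the 32 higher in co-culture than in control.

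**Figure D3:**
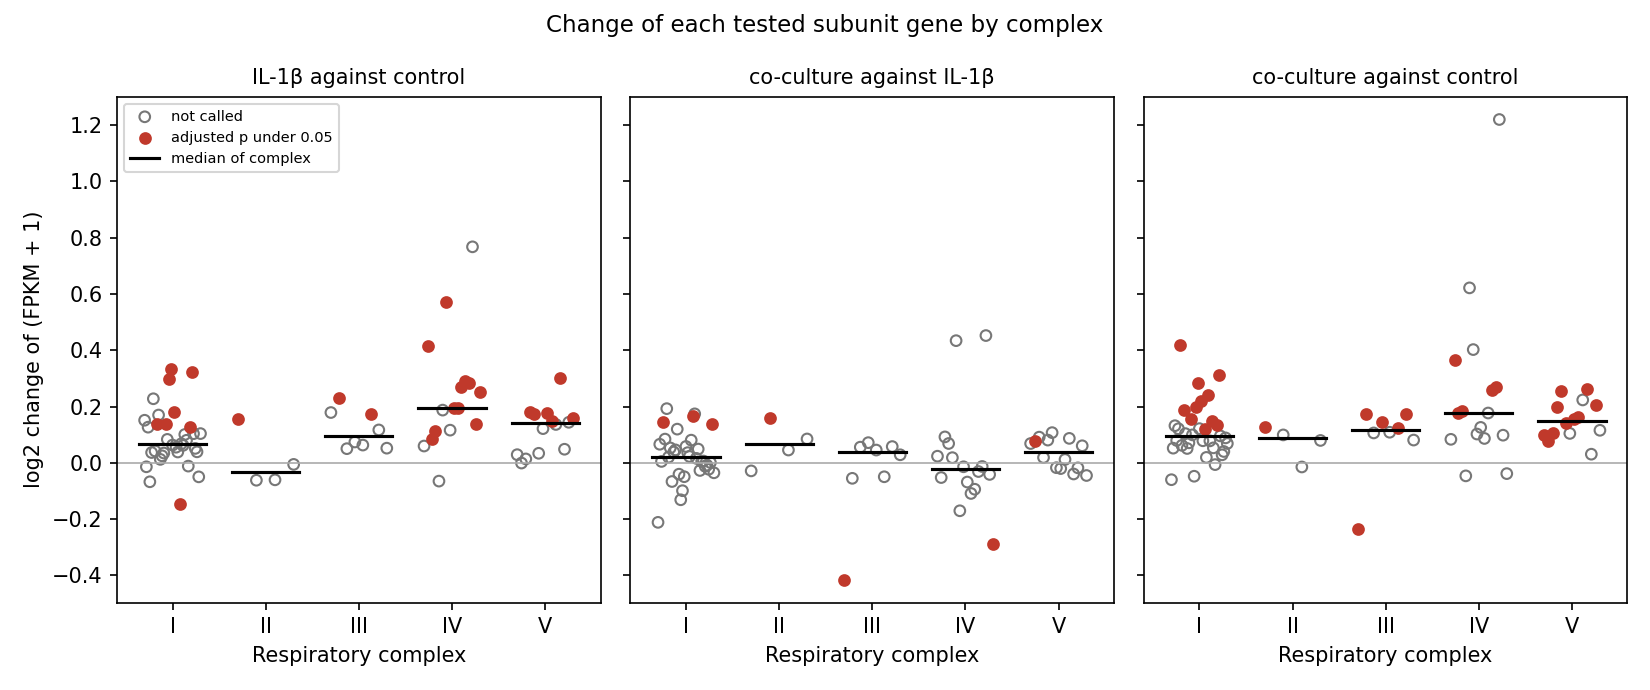
Log2 change of (FPKM + 1) for each of the 75 tested subunit genes, by complex, in IL-1β against control, co-culture against IL-1β and co-culture against control; filled points passed an adjusted p of 0.05 in limma and lines mark the median of each complex. The median of complex IV is 0.20 in IL-1β against control, and most points lie within 0.4 of 0.

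Complex I, the largest complex, has a core that carries the NADH site and the iron-sulphur clusters, and many accessory subunits that build and stabilise it. With IL-1β, 7 of the 26 tested accessory genes rose (26.9%, beside 26.5% of all tested genes) and 1 fell (3.85%, beside 20.2%). Of the 7 nuclear core genes, 0 passed limma's adjusted test and 0 had an unadjusted p under 0.05. In co-culture against control, 10 accessory genes (38.5%) and 1 core gene (14.3%), Ndufs1, were higher, beside 21.8% of all tested genes, and 0 were lower (0 also at an unadjusted p under 0.05). The difference between core and accessory genes was not tested.

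Ndufb4, an accessory subunit of the membrane arm, had the largest change of complex I with IL-1β. It had 324, 327 and 333 FPKM in co-culture libraries, 354, 323 and 342 FPKM in IL-1β libraries, and 268, 283 and 257 FPKM in control libraries. All IL-1β and all co-culture libraries lay above all control libraries. Its log2 change was 0.33 (SE 0.04, adjusted p = 0.000105) in IL-1β against control and 0.29 (SE 0.04, adjusted p = 0.000562) in co-culture against control.

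Ndufs5, another accessory subunit, followed with 166, 157 and 178 FPKM in co-culture libraries, 174, 166 and 165 FPKM in IL-1β libraries, and 134, 142 and 126 FPKM in control libraries. The control libraries were again the lowest 3, with a log2 change of 0.32 (SE 0.05, adjusted p = 0.000717) for IL-1β and 0.31 (SE 0.05, adjusted p = 0.00152) for co-culture against control. Ndufb3 and Ndufb6, both of the membrane arm, rose by 0.30 and 0.18 on the log2 scale with IL-1β, and were higher by 0.20 and 0.22 in co-culture than in control. Ndufb4, Ndufb6 and Ndufs5 kept these calls under every alternative tried in both comparisons, and Ndufb3 kept its call under all of them in IL-1β against control and under 13 of 18 in co-culture against control, where it was lost with a common FPKM sum, with quantile normalization and without co-culture replicate 3 or control replicate 1 or 3.

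Ndufa3, a small accessory subunit, was the member with the largest called change in co-culture against control. It had 144, 146 and 164 FPKM in co-culture libraries, 154, 113 and 133 FPKM in IL-1β libraries, and 115, 111 and 112 FPKM in control libraries. The co-culture libraries did not overlap the control libraries, while the IL-1β libraries spread across both. Its log2 change was 0.42 (SE 0.09, adjusted p = 0.00682) in co-culture against control and 0.23 (SE 0.09, adjusted p = 0.0734) in IL-1β against control.

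Ndufb9 moved the other way. This accessory subunit had 204, 208 and 211 FPKM in co-culture libraries, 190.0, 183 and 183 FPKM in IL-1β libraries, and 197, 215 and 203 FPKM in control libraries. The 3 IL-1β libraries were the lowest 3, and the co-culture and control libraries overlapped. It fell with IL-1β, with a log2 change of -0.15 (SE 0.03, adjusted p = 0.00625), and was higher in co-culture than in IL-1β by 0.17 (SE 0.03, adjusted p = 0.00756). Both calls held under all 18 alternatives, and both use the same IL-1β libraries.

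Ndufv2, a core subunit that carries an iron-sulphur cluster next to the NADH site, was also higher with fibroblasts. It had 147, 145 and 145 FPKM in co-culture libraries, 129, 132 and 136 FPKM in IL-1β libraries, and 140.4, 139 and 131 FPKM in control libraries. All co-culture libraries lay above all IL-1β libraries, whose highest value was within the control range. Its log2 change in co-culture against IL-1β was 0.14 (SE 0.03, adjusted p = 0.0118), and this call held under all alternatives. Ndufa12, an accessory subunit related to an assembly factor, was higher in the same comparison by 0.15 (SE 0.04, adjusted p = 0.0386), but kept its call under 9 of 18 alternatives.

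The other core genes varied little. Ndufs1, the largest core subunit, which carries iron-sulphur clusters, had 63.2, 71.1 and 73.2 FPKM in co-culture libraries, 66.1, 68.7 and 65.4 FPKM in IL-1β libraries, and 63.0, 60.2 and 63.1 FPKM in control libraries, and was called higher in co-culture than in control at 0.15 (SE 0.05, adjusted p = 0.0469), a call that held under 3 of 18 alternatives. Ndufv1, which binds NADH and flavin, averaged 84.0 ± 5.26 FPKM in co-culture, 83.8 ± 2.36 in IL-1β and 81.6 ± 4.84 in control libraries (SD, n = 3 each). Ndufs3, Ndufs7 and Ndufs8 passed no test on the values as deposited. Ndufs1 and Ndufs7 were called higher in IL-1β than in control with the 6 libraries compared alone and without co-culture replicate 1.

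Complex II, succinate dehydrogenase, also works in the citric acid cycle and has no subunit encoded by mitochondrial DNA. In each comparison 1 of its 4 genes (25.0%) was called higher as deposited. Of all tested genes, 26.5% were higher in IL-1β against control, 11.9% in co-culture against IL-1β and 21.8% in co-culture against control. The number called lower was 0 (0 also at an unadjusted p under 0.05 in limma), beside 20.2%, 10.1% and 12.2% of all tested genes. Sdha, the flavoprotein that oxidises succinate, had 74.7, 78.8 and 77.5 FPKM in co-culture libraries, 76.4, 78.0 and 81.2 FPKM in IL-1β libraries, and 71.6, 69.8 and 69.7 FPKM in control libraries. The control libraries were the lowest 3, and Sdha was higher by 0.16 (SE 0.03, adjusted p = 0.00303) in IL-1β and by 0.13 (SE 0.03, adjusted p = 0.0133) in co-culture, each against control. The first of these calls was lost with a common FPKM sum and the second under each of the 3 other scalings and without co-culture replicate 2.

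Sdhb, the iron-sulphur subunit that receives electrons from Sdha, had 112, 104 and 106 FPKM in co-culture libraries, 102, 93.8 and 92.1 FPKM in IL-1β libraries, and 101, 103 and 96.5 FPKM in control libraries. The co-culture libraries lay above all others, and the control libraries overlapped the IL-1β libraries. The log2 change in co-culture against IL-1β was 0.16 (SE 0.05, adjusted p = 0.0332), a call that held under 10 of 18 alternatives and was lost, among others, without IL-1β replicate 2 or 3 or co-culture replicate 1 or 3. The membrane anchors Sdhc and Sdhd passed no test on the values as deposited. In co-culture, IL-1β and control libraries, Sdhc had 135.5 ± 3.96, 131 ± 1.10 and 137 ± 5.29 FPKM and Sdhd had 128 ± 2.95, 120.5 ± 5.85 and 121 ± 1.5 FPKM. With IL-1β against control, Sdhb and Sdhc were called lower under a common FPKM sum, and Sdhc also under quantile normalization. Without the first IL-1β library, Sdhd was called higher in co-culture than in IL-1β. The ratio of Sdha to Sdhb was 71.7 ± 4.74 FPKM per 100 in co-culture, 82.0 ± 6.79 in IL-1β and 70.3 ± 2.37 in control libraries. For IL-1β against control the ratio gave p = 0.1 in a two-sided exact permutation test, the smallest p that 3 against 3 libraries allow.

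In complex III, the cytochrome bc1 complex, 2 of 8 genes rose with IL-1β, a share of 25.0% that is near the 26.5% of all tested genes, and 0 fell (4 and 0 at an unadjusted p under 0.05 in limma). In co-culture against control 4 were higher (50%, beside 21.8% of all tested genes) and 1 was lower (12.5%, beside 12.2%). Each of the 4 higher calls was lost under 1 or more of the 3 other scalings. Uqcrfs1, the Rieske iron-sulphur protein that oxidises ubiquinol, had 178, 169.9 and 177 FPKM in co-culture libraries, 186, 178 and 180.0 FPKM in IL-1β libraries, and 163, 157 and 162 FPKM in control libraries. The control libraries were the lowest 3, with log2 changes of 0.17 (SE 0.03, adjusted p = 0.0008) in IL-1β and 0.13 (SE 0.03, adjusted p = 0.00863) in co-culture against control, the second lost under each of the 3 other scalings. Uqcr11, a small accessory subunit, rose by 0.23 (SE 0.04, adjusted p = 0.0015) with IL-1β. It was higher in co-culture than in control by 0.17 (SE 0.04, adjusted p = 0.0107), a call lost with quantile normalization. Uqcrh, the hinge protein, was higher in co-culture than in control by 0.18 (SE 0.05, adjusted p = 0.0214). That call was lost under each of the 3 other scalings and without co-culture replicate 1 or 3 or control replicate 3. The core proteins Uqcrc1 and Uqcrc2, which form the matrix arm, passed no test with IL-1β, and in co-culture against control Uqcrc1 was higher by 0.15 (SE 0.04, adjusted p = 0.0192), a call lost under each of the other scalings and without co-culture replicate 1 or 2 or control replicate 3.

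Uqcr10 was the exception in direction as in level. It had 12.9, 11.7 and 11.2 FPKM in co-culture libraries, 15.1, 15.5 and 18.1 FPKM in IL-1β libraries, and 13.1, 14.8 and 14.7 FPKM in control libraries. All co-culture libraries were lower than all IL-1β and all control libraries, with a log2 change of -0.41 (SE 0.08, adjusted p = 0.00439) against IL-1β, which held under all 18 alternatives. Against control the log2 change was -0.24 (SE 0.08, adjusted p = 0.0417), a call that held under 10 of 18 alternatives. Its ratio to Uqcrq, the most abundant gene of the complex, was 2.92 ± 0.252 FPKM per 100 in co-culture, 4.05 ± 0.344 in IL-1β and 3.67 ± 0.142 in control libraries.

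Complex IV had the largest share of genes higher with IL-1β. Of its 16 tested genes 11 were higher (68.8%, beside 26.5% of all tested genes) and 0 were lower (11 and 0 at an unadjusted p under 0.05 in limma), with a median log2 change of 0.20. The higher genes numbered 7 under each of the 3 other scalings and 7 without the trend. They numbered 6 and 7 without IL-1β replicate 1 and 3, and 6 and 7 without control replicate 1 and 3. Every other alternative gave 8 to 11. Of all 11732 tested genes, 2249, 2723 and 2291 were higher under common-sum, median-of-ratios and quantile scaling, beside 3109 as deposited. Without the trend 3021 were higher. Without IL-1β replicate 1 and 3 these were 2789 and 2695, and without control replicate 1 and 3 they were 2719 and 2731. In co-culture against IL-1β 0 were higher and 1 (6.25%) was lower, beside 11.9% and 10.1% of all tested genes (1 and 2 at an unadjusted p under 0.05). In co-culture against control 5 were higher (31.2%, beside 21.8% of all tested genes) and 0 were lower (beside 12.2%).

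Subunit IV exists as a ubiquitous form, Cox4i1, and as Cox4i2, a form known from lung and from low oxygen. Cox4i2 had 142, 138 and 139.8 FPKM in co-culture libraries, 141, 153 and 141 FPKM in IL-1β libraries, and 112, 103 and 111 FPKM in control libraries. All IL-1β and co-culture libraries exceeded all control libraries. With 1.34 times its control mean in IL-1β and 1.29 times in co-culture, it had log2 changes of 0.42 (SE 0.04, adjusted p = 1.78e-05) and 0.36 (SE 0.04, adjusted p = 9.12e-05) against control, both held under all 18 alternatives. Cox4i1 had 668 ± 11.9 FPKM in co-culture, 658 ± 31.0 in IL-1β and 631 ± 21.7 in control libraries, and passed no test.

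Cox4i2 stood at 20.8, 20.8 and 21.2 FPKM per 100 FPKM of Cox4i1 in co-culture, 20.4, 24.2 and 21.7 in IL-1β, and 18.1, 15.7 and 17.9 in control libraries. The control libraries were below all others. The two-sided exact permutation test gave p = 0.1 for either group against control, the smallest p it can reach, and p = 0.4 for co-culture against IL-1β.

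Ndufa4, a subunit of complex IV, has the paralogue Ndufa4l2, which is known as a hypoxia-induced gene, and a second paralogue, listed as MGC105649 and named C3h15orf48 by RefSeq, which lies outside the symbol pattern. Ndufa4 had 263, 258 and 268 FPKM in co-culture libraries, 293, 253 and 268 FPKM in IL-1β libraries, and 249, 237 and 252 FPKM in control libraries. Ndufa4l2 had 136, 126 and 117 FPKM in co-culture libraries, 159, 149.6 and 153 FPKM in IL-1β libraries, and 129, 126 and 132 FPKM in control libraries. MGC105649 had 9.49, 8.6 and 8.39 FPKM in co-culture libraries, 20.7, 18.9 and 17.6 FPKM in IL-1β libraries, and 3.54, 4.54 and 2.93 FPKM in control libraries.

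The 3 genes behaved differently. For Ndufa4 the control libraries were the lowest 3, the closest of them near the second IL-1β library, and the co-culture and IL-1β libraries overlapped. Its log2 change of 0.14 (SE 0.05, adjusted p = 0.0386) with IL-1β kept its call under 6 of 18 alternatives. Ndufa4l2 was highest in the 3 IL-1β libraries, while co-culture and control overlapped. It rose by 0.25 (SE 0.05, adjusted p = 0.00233) with IL-1β and was lower in co-culture than in IL-1β with a log2 change of -0.29 (SE 0.05, adjusted p = 0.00281), and both calls held under all alternatives.

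MGC105649 separated the 3 groups without overlap. It was 5.2 times as high in IL-1β as in control and 0.463 times as high in co-culture as in IL-1β, with log2 changes of 2.12 (SE 0.11, adjusted p = 1.92e-07) and -1.03 (SE 0.11, adjusted p = 0.000163). Per 100 FPKM of Ndufa4 it stood at 3.36 ± 0.242 in co-culture, 7.04 ± 0.440 in IL-1β and 1.5 ± 0.382 in control libraries, and Ndufa4l2 at 51.6, 48.9 and 43.4 in co-culture, 54.3, 59.1 and 57.2 in IL-1β, and 52.0, 53.4 and 52.5 in control libraries. For both ratios each pair of groups gave p = 0.1 in the two-sided exact permutation test, its smallest value.

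The promoters of these paralogues are shown because the genes differ in response while their proteins are related. Each runs from 250 bases before to 50 after the annotated start in RefSeq GRCr8, 5′ to 3′ on the gene's strand. Capitals mark matches on either strand to the hypoxia response core (ACGTG or GCGTG) and to an ETS site (CCGGAAG), the motif read by the GABP factors known to act on many subunit genes. Ndufa4 lies at chr4:40975510-40975809 on the minus strand, Ndufa4l2 at chr7:65241919-65242218 on the plus strand and MGC105649 at chr3:130173285-130173584 on the plus strand.
Ndufa4: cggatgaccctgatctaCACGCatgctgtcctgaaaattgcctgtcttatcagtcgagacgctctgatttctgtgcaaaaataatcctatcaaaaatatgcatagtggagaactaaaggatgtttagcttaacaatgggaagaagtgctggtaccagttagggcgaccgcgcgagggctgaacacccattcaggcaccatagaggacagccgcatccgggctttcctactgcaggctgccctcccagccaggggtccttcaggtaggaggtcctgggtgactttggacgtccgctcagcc
Ndufa4l2: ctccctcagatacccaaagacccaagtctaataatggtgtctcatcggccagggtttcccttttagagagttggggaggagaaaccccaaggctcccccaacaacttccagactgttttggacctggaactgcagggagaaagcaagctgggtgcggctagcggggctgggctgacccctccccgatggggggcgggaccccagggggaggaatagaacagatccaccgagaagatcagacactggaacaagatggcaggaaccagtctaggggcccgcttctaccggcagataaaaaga
MGC105649: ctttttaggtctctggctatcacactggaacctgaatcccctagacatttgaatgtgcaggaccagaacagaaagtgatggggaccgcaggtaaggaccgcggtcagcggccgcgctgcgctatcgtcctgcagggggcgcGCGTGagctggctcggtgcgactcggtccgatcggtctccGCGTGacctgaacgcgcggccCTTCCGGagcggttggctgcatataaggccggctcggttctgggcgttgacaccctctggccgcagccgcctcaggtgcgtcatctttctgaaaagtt

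The window of Ndufa4 held 1 such match, that of Ndufa4l2 held 0 and that of MGC105649 held 3. A match is only a run of letters, and its absence from a window says nothing of the factor.

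**Figure D4:**
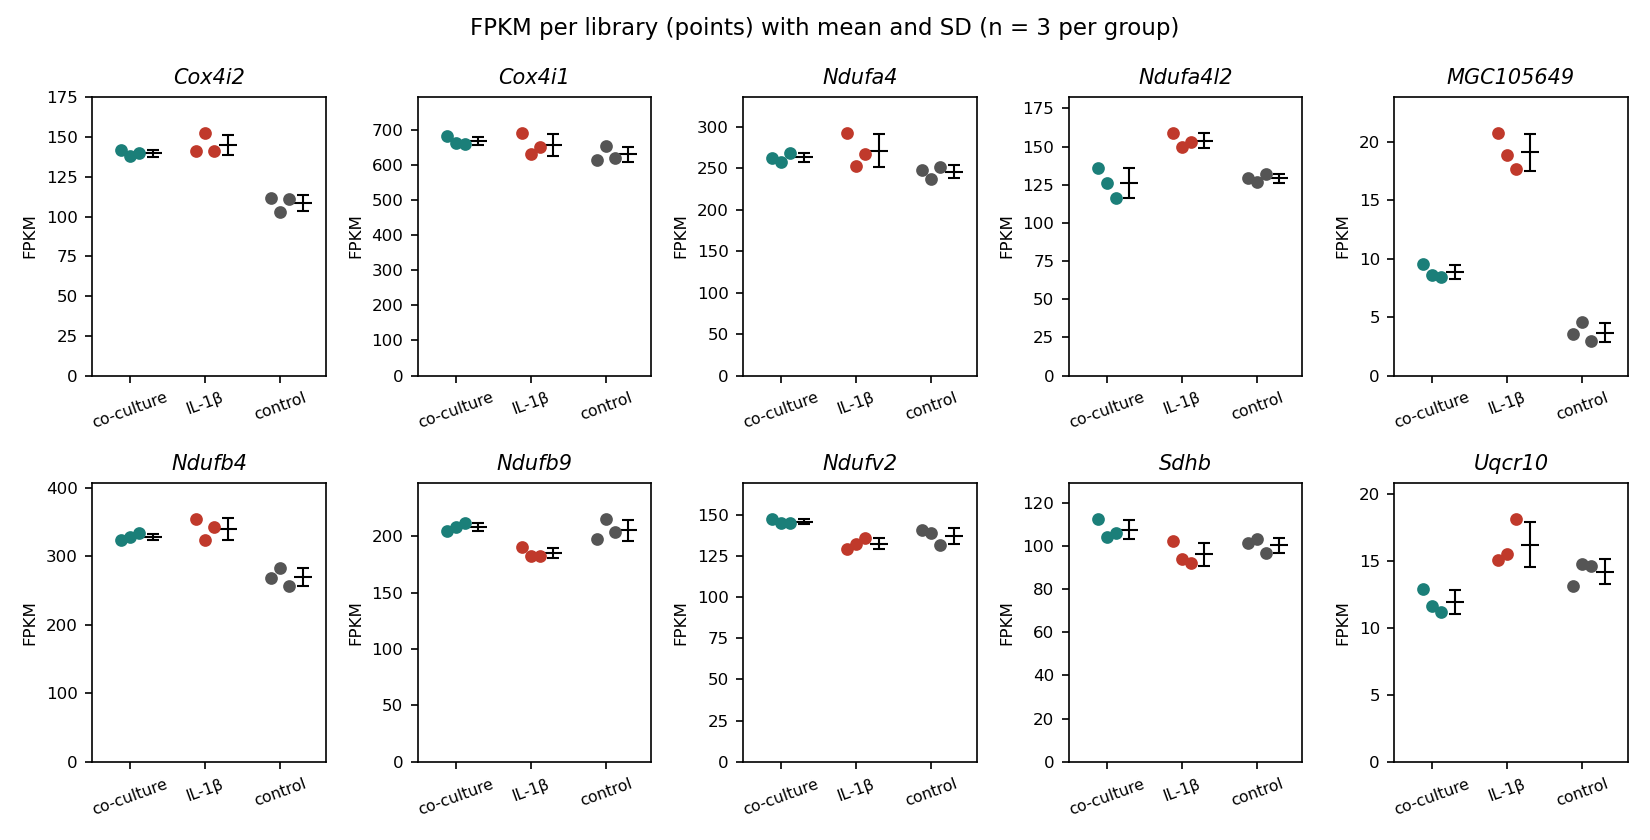
FPKM per library of 10 genes in co-culture, IL-1β and control chondrocytes, with the mean and SD of each group (n = 3); each axis starts at 0. MGC105649 separates all 3 groups, Ndufa4l2 is highest and Ndufb9 lowest in the IL-1β libraries, and Cox4i2 is lowest in the control libraries.

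Cox8a and Cox7c, small subunits of complex IV, rose with IL-1β. Cox8a had 544, 515 and 535 FPKM in co-culture libraries, 579, 516 and 515 FPKM in IL-1β libraries, and 424, 448 and 450.0 FPKM in control libraries, and Cox7c had 473, 459 and 473 FPKM in co-culture libraries, 533, 444 and 462 FPKM in IL-1β libraries, and 388, 406 and 378 FPKM in control libraries. The control libraries were the lowest 3 for both. Cox8a rose by 0.28 (SE 0.05, adjusted p = 0.000824) and Cox7c by 0.29 (SE 0.06, adjusted p = 0.00256) with IL-1β, and both were also higher in co-culture than in control, by 0.27 and 0.26 on the log2 scale. Cox7b rose by 0.27 (SE 0.07, adjusted p = 0.0108) with IL-1β, and its first IL-1β library, at 538 FPKM, stood above the other IL-1β libraries at 428 and 475.

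Cox7a2l, which helps complex III join complex IV in supercomplexes, rose by 0.20 (SE 0.04, adjusted p = 0.00216) with IL-1β under all alternatives, while its ubiquitous relative Cox7a2 rose by 0.19 (SE 0.06, adjusted p = 0.0285) with a call that held under 10 of 18. Cox5a and Cox5b, which sit on the matrix side, were higher in co-culture than in control by 0.18 (SE 0.03, adjusted p = 0.00138) and 0.18 (SE 0.04, adjusted p = 0.00399), held under all 18. The abundant Cox6a1 had 658 ± 12.8 FPKM in co-culture, 650.5 ± 36.8 in IL-1β and 679.9 ± 23.6 in control libraries. It passed no test on the values as deposited, and was lower in both comparisons with control under a common FPKM sum and under quantile normalization.

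Isoforms known from muscle and testis stood far below Cox4i2. Cox6a2, the heart and muscle form of subunit VIa, had 8.47, 5.36 and 7.94 FPKM in co-culture, 5.83, 6.97 and 3.01 in IL-1β and 5.04, 4.12 and 3.78 in control libraries, and passed no test. Cox8b, the heart and muscle form of subunit VIII, spread from 1.44 to 13.6 FPKM with overlapping groups. Cox6b2, known from testis, had 15.3, 8.33 and 11.4 FPKM in co-culture libraries, 14.5, 10.3 and 14.4 FPKM in IL-1β libraries, and 7.06, 9.34 and 8.8 FPKM in control libraries. The IL-1β libraries lay above the control libraries, and the co-culture libraries overlapped both. It passed the test in IL-1β against control, at 0.57 (SE 0.20, adjusted p = 0.0361), a call that held under 11 of 18 alternatives and was lost without replicate 1 or 3 of either group. The summed skeletal muscle markers given above differed between the groups, and their part in the values of Cox6a2 and Cox8b was not tested.

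In complex V, 6 of 14 tested genes rose with IL-1β (42.9%, beside 26.5% of all tested genes) and 0 fell (8 and 0 at an unadjusted p under 0.05 in limma). In co-culture against control 10 were higher (71.4%, beside 21.8%) and 0 lower (13 and 0). Under the 3 other scalings the number higher in co-culture was 5, 4 and 4. All 5 genes of the F1 head, the catalytic part, were higher in co-culture than in control as deposited, while 2 of them, Atp5d and Atp5e, rose with IL-1β.

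Atp5b, which holds the catalytic sites, had 967, 983 and 955 FPKM in co-culture libraries, 937, 899 and 917 FPKM in IL-1β libraries, and 917, 925 and 911 FPKM in control libraries. The co-culture libraries lay above all others, which overlapped. The log2 changes were 0.08 (SE 0.02, adjusted p = 0.0486) against IL-1β and 0.08 (SE 0.02, adjusted p = 0.0359) against control. The calls held under 4 and 6 of 18 alternatives, and against control the direction reversed under quantile normalization, where the change was -0.052. The α subunit Atp5a1 and the γ subunit Atp5c1, which turns inside the head, were higher than control by 0.10 and 0.11 on the log2 scale, and these calls were lost under each of the 3 other scalings.

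Atp5e, the small ε subunit, had 455, 497 and 524 FPKM in co-culture libraries, 495, 453 and 446 FPKM in IL-1β libraries, and 418, 422 and 395 FPKM in control libraries. The co-culture and control libraries did not overlap, and its log2 change of 0.26 (SE 0.06, adjusted p = 0.00603) against control held under all alternatives. Atp5j, the stalk subunit F6, had 481, 495 and 492 FPKM in co-culture libraries, 516, 475 and 519 FPKM in IL-1β libraries, and 422, 386 and 416 FPKM in control libraries. The control libraries were the lowest 3, and log2 changes of 0.30 (SE 0.04, adjusted p = 0.000248) with IL-1β and 0.26 (SE 0.04, adjusted p = 0.00107) in co-culture against control held under all alternatives.

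The c-ring, which turns with the proton flow, is encoded by Atp5g1, Atp5g2 and Atp5g3, whose mature proteins are the same. How reads matching more than one of them were counted is not known, so their separate values are uncertain. Atp5g3 had 553, 552 and 554 FPKM in co-culture, 579, 540.3 and 564 in IL-1β and 494, 497 and 498 in control libraries, with log2 changes of 0.18 (SE 0.03, adjusted p = 0.000489) in IL-1β and 0.16 (SE 0.03, adjusted p = 0.00175) in co-culture against control. Atp5g1 was called in co-culture against control at 0.14 (SE 0.04, adjusted p = 0.0323), held under 8 of 18 alternatives. Atp5g2 passed no test on the values as deposited. It was called higher in IL-1β than in control under some alternatives, among them the replicate block and the fit without IL-1β replicate 2. Of the subunits around the membrane part, Atp5l was higher in co-culture than in control by 0.20 on the log2 scale, a call lost with median-of-ratios scaling and without co-culture replicate 2 or 3, and Atp5i and Atp5j2 passed no test. Atp5i varied widely within groups, from 879 to 1102 FPKM in the IL-1β libraries.

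Among the 5 entries that are not established subunits, Atp5s was higher in co-culture than in control by 0.21 (SE 0.07, adjusted p = 0.0432), at 4.08 ± 0.0529 FPKM against 3.39 ± 0.278 (SD, n = 3 each), held under 7 of the 17 alternatives in which it was tested. No other call was made. Atp5sl, an assembly factor of complex I, was steady at 13.7 to 14.9 FPKM. Ndufa10l1 lay between 2.75 and 3.91 FPKM. Cox7a2l2 was listed at 0 in the third IL-1β library and at up to 17.1 FPKM elsewhere, and Ndufs6 was listed at 0 in 3 libraries and at no more than 1.85.

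**Figure D5:**
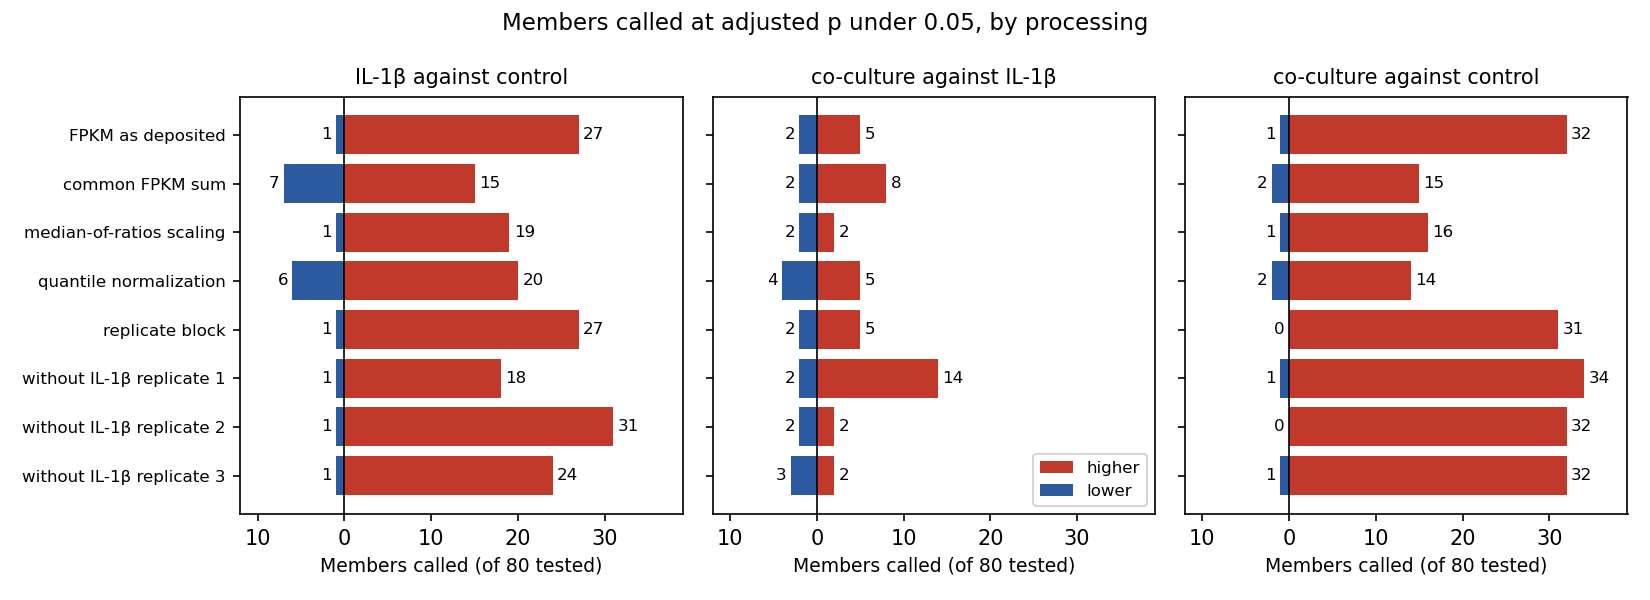
Number of the 80 tested members called higher (right of 0) or lower (left of 0) in each comparison, with the FPKM as deposited, under 3 other scalings, with a replicate block, and without each IL-1β library. Higher calls in IL-1β against control range from 15 to 31 over the settings shown, and those in co-culture against IL-1β from 2 to 14.

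Promoter windows of the subunit genes held motifs known from respiratory genes. Of the 77 subunit genes, 67 were found in the RefSeq GRCr8 promoter table by gene ID. On either strand, the NRF1 motif, spelled GCGCA, any base and GCGC and read by a regulator of respiratory genes, occurred in 13 (19.4%), beside 4.71% of all 27457 promoters. The ETS motif CCGGAAG occurred in 19 (28.4%, beside 9.22%), and the YY1 motif ATGGCGGC in 9 (13.4%, beside 2.76%). The hypoxia core occurred in 39 (58.2%, beside 42.9%), and it can overlap the NRF1 motif, which contains GCGTG on 1 strand when its open base is C. The 27457 promoters were not limited to the 11732 genes tested here. The subunit genes were therefore not set against genes of like expression.

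Ndufb4 is shown as a gene with a full NRF1 match among those higher in both groups given IL-1β than in control. Its window lies at chr11:76568928-76569227 on the plus strand of GRCr8, and capitals mark the NRF1 match near the start and an upstream hypoxia core.
Ndufb4: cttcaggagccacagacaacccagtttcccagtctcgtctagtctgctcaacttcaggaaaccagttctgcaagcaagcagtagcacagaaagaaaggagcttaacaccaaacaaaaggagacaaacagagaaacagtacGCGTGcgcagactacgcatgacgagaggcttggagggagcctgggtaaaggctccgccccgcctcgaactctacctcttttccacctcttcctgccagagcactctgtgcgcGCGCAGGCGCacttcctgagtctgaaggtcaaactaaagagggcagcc

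The same motifs occurred in promoters of genes that passed no test, among them NRF1 in Ndufa5 and ETS in Cox4i1. The presence of a motif was not compared with response.

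The immediate partners outside the symbol pattern included cytochrome c, cytochrome c1 of complex III, the acyl carrier protein Ndufab1 of complex I and small proteins of complex V. Of 5 tested, 1 rose and 1 fell with IL-1β (20% each, beside 26.5% and 20.2% of all tested genes), 2 were higher in co-culture than in IL-1β (40.0%, beside 11.9%), and 4 were higher in co-culture than in control (80%, beside 21.8%). Cycs, the cytochrome c that links complexes III and IV, had 313, 318 and 317 FPKM in co-culture libraries, 284, 266 and 268 FPKM in IL-1β libraries, and 286, 289 and 292 FPKM in control libraries. The IL-1β libraries were the lowest 3 and the co-culture libraries the highest 3. Its log2 changes were -0.08 (SE 0.03, adjusted p = 0.0358) with IL-1β and 0.21 (SE 0.03, adjusted p = 0.000663) in co-culture against IL-1β. The second call held under all alternatives, and the first under 10 of 18, being lost without IL-1β replicate 2 or 3 or any 1 control library. Atpif1, the inhibitor of the ATP synthase, rose by 0.24 (SE 0.04, adjusted p = 0.00127) with IL-1β, a call lost with quantile normalization.

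Assembly factors insert and join the subunits. In IL-1β against control, 2 of 17 complex I factors rose and 3 fell, 3 of 4 complex II factors rose, 1 of 6 complex III factors rose, 6 of 22 complex IV factors rose and 3 fell, and 2 of 3 complex V factors rose. Over all tested genes 26.5% rose and 20.2% fell, against 11.8% and 17.6% of the complex I factors and 27.3% and 13.6% of the complex IV factors. Tmem126a of complex I fell to 22.3 ± 1.13 FPKM with IL-1β, against 27.75 ± 0.625 in control, and was higher in co-culture, at 26.1 ± 1.12, than in IL-1β (log2 changes -0.31 (SE 0.05, adjusted p = 0.000366) and 0.22 (SE 0.05, adjusted p = 0.00769)).

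Among complex IV factors, the share called was near that of all genes in the upward direction. Cox17, the copper chaperone, rose to 157 ± 10.3 FPKM with IL-1β, against 112 ± 10.3 in control, by 0.48 (SE 0.07, adjusted p = 0.000205) on the log2 scale. Higd1a, a hypoxia-induced factor of complex IV, had a log2 change of 0.48 (SE 0.03, adjusted p = 4.15e-07). Cox20, a chaperone of the mitochondrially encoded subunit II, had a log2 change of -0.45 (SE 0.06, adjusted p = 0.00026) with IL-1β, at 24.2 ± 1.59 FPKM against 33.4 ± 2.20 in control, and was higher in co-culture (29.5 ± 1.77) than in IL-1β by 0.28 (SE 0.06, adjusted p = 0.0127).

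Among 20 tested regulators of mitochondrial genes, 5 rose and 5 fell with IL-1β, 3 were higher and 1 lower in co-culture than in IL-1β, and 5 were higher in co-culture than in control. These shares, 25.0% and 25.0%, 15% and 5%, and 25.0% higher, stood beside 26.5% and 20.2%, 11.9% and 10.1%, and 21.8% of all tested genes. Esrra, a nuclear receptor that drives respiratory genes, had 25.9, 24.6 and 24.6 FPKM in co-culture libraries, 28.0, 29.4 and 30.0 FPKM in IL-1β libraries, and 19.2, 19.6 and 19.6 FPKM in control libraries. It separated all 3 groups without overlap and rose by 0.56 (SE 0.04, adjusted p = 1.12e-06) with IL-1β. Tfam, which packages mitochondrial DNA, rose by 0.16 (SE 0.05, adjusted p = 0.0158) with IL-1β, a call lost with a common FPKM sum, with quantile normalization and without IL-1β replicate 3 or control replicate 2. Nrf1, which reads the motif above, fell with IL-1β at a log2 change of -0.15 (SE 0.04, adjusted p = 0.0194), a call lost without IL-1β replicate 2 or control replicate 1. The coactivators Ppargc1a and Ppargc1b stood below 1 FPKM in every library.

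Of 25 genes of the citric acid cycle and pyruvate dehydrogenase, 7 rose and 4 fell with IL-1β, and the 28.0% and 16.0% these make were near the 26.5% and 20.2% of all tested genes. Pdk1, the kinase that switches pyruvate dehydrogenase off, had 66.9, 68.9 and 65.0 FPKM in co-culture libraries, 74.9, 71.0 and 75.4 FPKM in IL-1β libraries, and 44.8, 41.9 and 44.5 FPKM in control libraries. Its groups did not overlap, with log2 changes of 0.74 (SE 0.04, adjusted p = 1.48e-07) with IL-1β and -0.14 (SE 0.04, adjusted p = 0.0285) in co-culture against IL-1β. The second call held under 13 of 18 alternatives and was lost without the trend and without replicate 1 or 3 of IL-1β or of co-culture. Pdha1, a catalytic subunit of the enzyme, fell with IL-1β at a log2 change of -0.14 (SE 0.03, adjusted p = 0.00152), and the kinase Pdk4 fell at -0.61 (SE 0.09, adjusted p = 0.000344).

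Of 20 genes of mitochondrial import, membrane shape and carriers, 2 rose and 3 fell with IL-1β (10% and 15%, beside 26.5% and 20.2% of all tested genes). In co-culture against IL-1β 6 were higher (30.0%, beside 11.9%) and 0 lower (11 and 0 at an unadjusted p under 0.05 in limma), and 9 were higher in co-culture than in control (45.0%, beside 21.8%). Vdac2, an outer membrane channel, had 223, 222 and 225 FPKM in co-culture libraries, 195, 188 and 196 FPKM in IL-1β libraries, and 225, 218 and 217 FPKM in control libraries. The IL-1β libraries were the lowest 3, and co-culture and control overlapped. Its log2 changes were -0.19 (SE 0.03, adjusted p = 0.000203) with IL-1β and 0.21 (SE 0.03, adjusted p = 0.000354) in co-culture against IL-1β. The chaperonin pair Hspd1 and Hspe1 was higher in co-culture than in IL-1β by 0.15 and 0.23 on the log2 scale.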

How the data were processed

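Messenger RNA of 9 chondrocyte libraries was measured. The authors deposited 1 table of FPKM per gene; build GRCm38 is named per the submitters' processing notes, although the gene identifiers are rat ones, and for aligner and annotation: not given in the sources used here. Read counts were not used here, so the depth of each library is unknown and no counting interval is given. The 82 members and all gene lists were chosen with earlier results of these data known.

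Values were taken as log2(FPKM + 1), for genes at 1 FPKM or more in at least 3 of 9 libraries (11732 genes). All 9 libraries entered 1 limma 3.58.1 fit (R 4.3.3) with an intensity trend and no covariate, a two-sided moderated test and Benjamini-Hochberg adjustment over all tested genes; the steps were tested on simulated data. The 18 alternatives changed the pseudocount, filter, scaling, trend, libraries fitted or replicate block, or left out 1 library. Genes described were the largest called changes, the highest of each complex, isoform sets, catalytic cores and Sdh genes. MGC105649 and the motif examples were chosen with their values known. Promoters and current gene names came from RefSeq GRCr8, matched by gene ID.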

Additional observations from a re-analysis of the deposited data

How the results depend on the processing

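Of the 27 members higher in IL-1β than in control, the number with a common FPKM sum was 15, and it was 18 to 31 when 1 library was left out; the members lower numbered 7 with a common sum and 6 with quantile normalization, against 1 as deposited. In co-culture against IL-1β, 5 were higher as deposited, 2 without the filter, 8 with a common sum, 2 with median-of-ratios scaling, 3 with the 6 libraries alone, 2 without the trend, and 2 to 14 with 1 library left out; 2 were lower as deposited, 4 with quantile normalization and 2 to 5 with 1 library left out. In co-culture against control, 32 were higher as deposited, 15 with a common sum, 16 with median-of-ratios scaling and 14 with quantile normalization; 1 was lower, 0 without the filter, 2 with a common sum, 2 with quantile normalization, 0 without the trend, 0 with the replicate block and 0 to 1 with 1 library left out. The causes were not tested. Counting genes called with or without the change, 1 member and 1 listed gene changed sign, both under quantile normalization: the log2 change of Atp5b, co-culture against control, was -0.052 (0.08 as deposited), and that of the phosphate carrier Slc25a3, co-culture against control, was -0.076 (0.015 as deposited). Same-numbered libraries did not deviate together (r -0.0907 to 0.0855 over 9 pairs), so numbers were not taken as pairs; with the replicate block the members called were 27 higher and 1 lower in IL-1β against control, 5 and 2 in co-culture against IL-1β, and 31 and 0 in co-culture against control. Depth is unknown, 3 libraries a group limit precision, and most called changes were small.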
